A study of Mus musculus with 12 samples.

Results

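Serotonin receptors were followed across 6 regions of the mouse brain in mice with and without interleukin-18 (IL-18), an inflammatory cytokine. The receptors were 9 genes taken by name (Htr1a, Htr1b, Htr2a, Htr2c, Htr3a, Htr4, Htr5a, Htr6 and Htr7), which together had 11 of the 41174 gene probes on the arrays, or 9 of 16358 genes that could be named. Htr2c and Htr4 had 2 probes each, and every probe was kept. The mice were male F2 littermates of 12 weeks, descended from 3 male IL-18-/- mice and 6 female C57BL/6J mice, and were either wild type (WT) or IL-18 KO, with strain given as C57BL/6 in both. All were perfused with cold saline, and the regions were cut from coronal sections 1 mm thick. Hypothalamus, amygdala and hippocampus came from the same span of slices, 1.5 to 2.5 mm posterior to bregma. Each of the 12 one-colour arrays held RNA pooled in equal amounts from 5 mice, with 1 array per genotype in each region. Olfactory bulb, prefrontal cortex and striatum each came from slices of their own. A pool carries no measure of the spread between mice.

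Serotonin is made by a small group of neurons of the brainstem raphe whose axons reach nearly all of the forebrain, so that the receptor a region carries sets how it responds. Receptors of the Htr1 and Htr5 families couple to inhibitory G proteins that lower cAMP, those of the Htr2 family couple to Gq and phospholipase C, and Htr4, Htr6 and Htr7 raise cAMP through Gs. Htr3a encodes a subunit of the only serotonin receptor that is an ion channel. Transcripts in these regions come from neurons that receive serotonin and from local non-neuronal cells, and in bulk tissue fewer cells of a type and less RNA per cell cannot be told apart.

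A level here is the log2 of the background-subtracted spot signal minus the 75th percentile of the same array, so a difference of 1 is 2-fold. Levels were compared for 1 probe between arrays and not between probes. The 75th percentile itself ranged from 208 to 768 intensity units and was lowest on both striatum arrays, where the smallest shares of spots were well above background, down to 60.8%. Il18 was between 0.57 and 1.12 on the WT arrays and between -4.35 and -3.12 on the KO arrays, in the order the labels give. Marker lists for olfactory bulb, striatum, hippocampus and hypothalamus had their highest medians on the arrays of those names, with 1 exception: the array labelled Amygdala WT had a hypothalamus marker median of 1.68 over 12 genes, against 1.36 and 1.61 on the hypothalamus arrays and -1.54 on Amygdala KO. Across 23780 probes its Pearson r was 0.996 with Hypothalamus WT and 0.982 with Amygdala KO. Amygdala differences that passed the adjusted threshold are therefore also given from Amygdala KO alone, and differences between KO and WT also without the amygdala pair. Each slide held 1 region and each genotype 1 fixed position on the slide, so region and slide, and genotype and position, cannot be told apart. The prefrontal cortex and hippocampus arrays shared a scan day, and all remaining arrays shared another. What sets those regions apart from the rest therefore cannot be separated from scan day.

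Of the 11 receptor probes, 8 probes of 7 genes were well above background on at least 6 arrays and entered the tests, and 5 were so on all 12. For each region the limma fit gave the difference from the average of the remaining 5, with a term for genotype, and a probe was called at a Benjamini-Hochberg adjusted p under 0.05 with a difference of at least 1. Of the 7 genes, 4 (Htr1a, Htr2c, Htr3a and Htr7) were called in at least 1 region, with 9 calls among 48 probe-by-region differences. The share of all tested probes called in at least 1 region was not counted, so this count is not read as particular to the receptors. Hypothalamus had 3 of 8 probes called where 3.27% of all 31029 tested probes were, and olfactory bulb had 2 of 8 beside 11.9%. The remaining regions had 1 of 8 each, beside 5.61% for prefrontal cortex, 23.4% for striatum, 6.36% for amygdala and 6.93% for hippocampus. With 8 probes, 1 call is the smallest share that can be seen. Each region mean rests on 1 WT and 1 KO array, so the spread behind these tests is that between 2 pools.

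**Figure D1:**
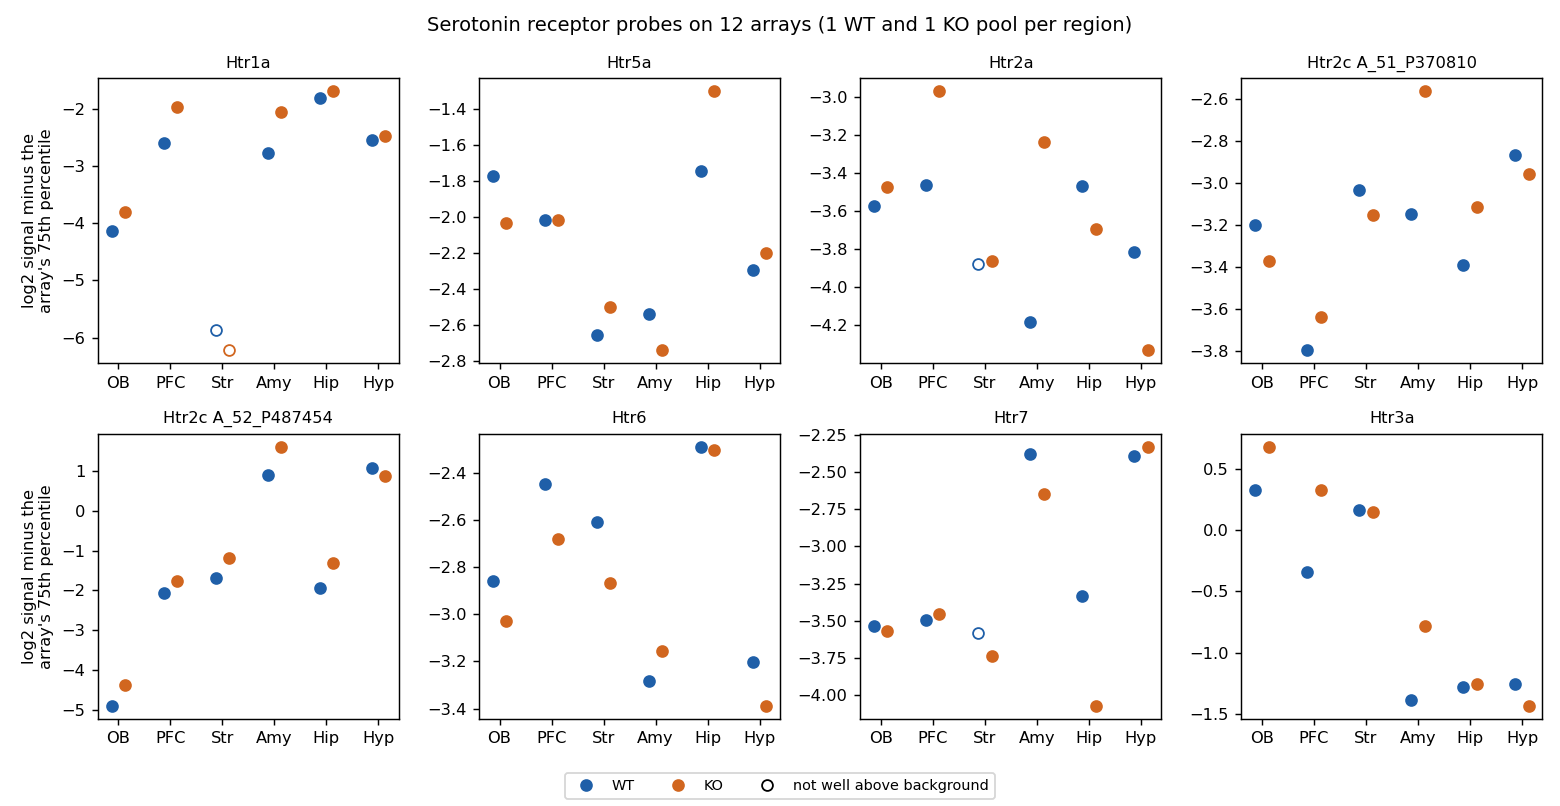
Level of 8 serotonin receptor probes (log2 signal minus the 75th percentile of the array) in 6 regions: olfactory bulb (OB), prefrontal cortex (PFC), striatum (Str), amygdala (Amy), hippocampus (Hip) and hypothalamus (Hyp). Each point is 1 array, and hollow points were not well above background. The vertical axes differ between panels. Htr1a was highest in hippocampus, Htr3a in olfactory bulb, and the Htr2c probe A_52_P487454 ran from -4.89 in olfactory bulb to 1.60 in amygdala.

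Htr1a, the Gi-coupled receptor that is an autoreceptor in the raphe and a postsynaptic receptor in forebrain, was highest in hippocampus and lowest in striatum. Its probe read -1.81 and -1.69 in hippocampus (WT, then KO), -2.60 and -1.96 in prefrontal cortex, and -2.77 and -2.06 in amygdala. It read -2.54 and -2.48 in hypothalamus, -4.13 and -3.81 in olfactory bulb, and -5.86 and -6.22 in striatum, where neither array was well above background. Both hippocampus arrays lay above the other 10 arrays, while prefrontal cortex, amygdala and hypothalamus overlapped and the olfactory bulb arrays lay below all 3. As fitted, hippocampus exceeded the other regions by 1.69 (SE 0.19, limma adjusted p 0.00105), prefrontal cortex did so by 1.06 (SE 0.19, limma adjusted p 0.00666), and striatum differed by -3.46 (SE 0.19, limma adjusted p 1.65e-05). The low striatum readings enter all of these. With signals below background set at the dimmest level well above background on the same array, a setting chosen after seeing the data, the hippocampus difference was 1.28 (limma adjusted p 0.0027), or 2.43-fold, and the striatum difference -1.40 (limma adjusted p 0.000509). The prefrontal difference then fell under 2-fold, at 0.64 (limma adjusted p 0.038), and olfactory bulb passed at -1.38 (limma adjusted p 0.000944), against -0.97 as fitted. Set against that level on the striatum arrays, Htr1a was 4.69-fold higher in hippocampus and 3.25-fold in prefrontal cortex. It was 2.96-fold higher in amygdala, 2.77-fold in hypothalamus and 1.01-fold in olfactory bulb. These folds are not strict lower bounds. On Striatum WT that level was -3.78, and Htr7 at -3.58 lay above it without being well above background. The folds compare normalised log2 means, and the striatum arrays were the dimmest of the series. Without both amygdala arrays the hippocampus difference was 1.95, the prefrontal 1.29 and the striatal -3.41. Hypothalamus differed by 0.78, past the adjusted threshold but short of 2-fold. It passed 2-fold without both amygdala arrays, at 1.00 (limma adjusted p 0.00653), and with quantile normalization, at 1.06 (limma adjusted p 0.00694). With signals below background set at the dimmest level well above background it was 0.37 (limma adjusted p 0.172). Amygdala differed by 0.90 (limma adjusted p 0.0097), short of 2-fold, and from Amygdala KO alone by 1.17 (limma adjusted p 0.0168), past it. The normexp background correction adds an offset of 50 intensity units, while the background-subtracted Htr1a signals in striatum were 3.58 and 3.65 units. With normexp all 3 Htr1a calls were lost, at 0.76 in hippocampus, 0.31 in prefrontal cortex and -0.41 in striatum. The prefrontal call was also lost without Prefrontal cortex KO, at 0.83 (limma adjusted p 0.0949), and without Striatum KO, where the difference of 0.98 fell under 1.

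Htr5a, another Gi-coupled receptor that is largely confined to the nervous system, had a narrower range and no call. It read -1.75 and -1.30 in hippocampus, -1.77 and -2.03 in olfactory bulb, and -2.02 and -2.02 in prefrontal cortex. It read -2.29 and -2.20 in hypothalamus, -2.65 and -2.50 in striatum and -2.54 and -2.74 in amygdala. The hippocampus arrays were the highest pair and those of striatum and amygdala the lowest, overlapping each other only through Amygdala WT. Hippocampus was above the other regions by 0.75 (SE 0.13, limma adjusted p 0.0056), while striatum differed by -0.51 and amygdala by -0.59, or -0.73 (limma adjusted p 0.026) from Amygdala KO alone, all short of 2-fold. The striatum value turned to 0.083 with the normexp background correction. Htr1b, the receptor of serotonin terminals, was not well above background on any of the 12 arrays, so these data give it no order between regions.

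Htr2c, the Gq-coupled receptor known from hypothalamic feeding circuits and from the choroid plexus, showed the widest range of the receptors, and did so on 1 of its 2 probes. Probe A_52_P487454 read 0.90 and 1.60 in amygdala and 1.07 and 0.88 in hypothalamus. It read -1.68 and -1.18 in striatum, -1.93 and -1.32 in hippocampus and -2.07 and -1.77 in prefrontal cortex. In olfactory bulb it read -4.89 and -4.36. Amygdala and hypothalamus lay far above the 3 middle regions, whose neighbours overlapped, and the olfactory bulb lay below every other array. Amygdala and hypothalamus overlapped only through Amygdala WT, and Amygdala KO lay above both hypothalamus arrays. The lowest and highest arrays were 6.49 apart, or 89.8-fold, and the range of its region means exceeded that of 99.6% of tested probes. Amygdala exceeded the other regions by 2.98 (SE 0.16, limma adjusted p 0.000307), a 7.88-fold difference. Hypothalamus exceeded them by 2.64 (SE 0.16, limma adjusted p 0.000399), or 6.25-fold. Olfactory bulb was below them, at -4.08 (SE 0.16, limma adjusted p 7.11e-06), or 16.9-fold lower.

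Because the array labelled Amygdala WT carried hypothalamus markers, the Htr2c amygdala value was also taken from Amygdala KO alone. It was then 3.15 (limma adjusted p 0.00439), with the lone array assumed to vary like the other regions. Amygdala KO, at 1.60, had the highest Htr2c level of all arrays while its hypothalamus marker median was -1.54, near that of hippocampus at -1.59 and -1.22. Without both amygdala arrays the hypothalamus difference was 3.37 and the olfactory bulb difference -3.63.

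Choroid plexus markers moved with region too. The median of 11 such genes was 0.16 on Amygdala WT, -1.65 on Amygdala KO, 0.045 on Hypothalamus WT and -0.94 on Hypothalamus KO. It was -0.44 and 0.46 in hippocampus, -4.20 and -2.06 in striatum, -3.97 and -4.22 in olfactory bulb and -4.36 and -4.68 in prefrontal cortex. The summed linear signal of those 11 genes, relative to the 75th percentile, ran from 1.02 to 22.5 over the WT arrays and from 0.876 to 26.1 over the KO arrays, and 3 (Striatum WT) to 11 of them were well above background. Ttr, the transthyretin gene that defines this epithelium, was highest on Hippocampus KO at 3.07, where Htr2c was -1.32. Hippocampus WT thus had a choroid plexus median between those of the hypothalamus arrays and Hippocampus KO one above both, while Htr2c on both hippocampus arrays was well below its hypothalamus levels. The part of choroid plexus in the Htr2c values was not tested beyond these readings.

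The other Htr2c probe, A_51_P370810, put amygdala, hypothalamus, striatum and hippocampus in the same order, with Amygdala KO again the highest array, but over a far narrower range. It read -3.15 and -2.56 in amygdala, -2.86 and -2.96 in hypothalamus, -3.03 and -3.15 in striatum and -3.39 and -3.11 in hippocampus. It read -3.20 and -3.37 in olfactory bulb and -3.80 and -3.64 in prefrontal cortex. Its whole range was 1.23, or 2.35-fold, its Pearson r with the other probe over the 12 arrays was 0.59, and olfactory bulb, the lowest region by far on the first probe, sat beside hippocampus on the second. Prefrontal cortex differed by -0.64 (SE 0.15, limma adjusted p 0.0161). Amygdala differed by 0.40 (limma adjusted p 0.0598), or 0.68 (limma adjusted p 0.0184) from Amygdala KO alone. The sizes given for Htr2c therefore rest on A_52_P487454, and which probe reads the transcript cannot be told from these arrays.

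**Figure D2:**
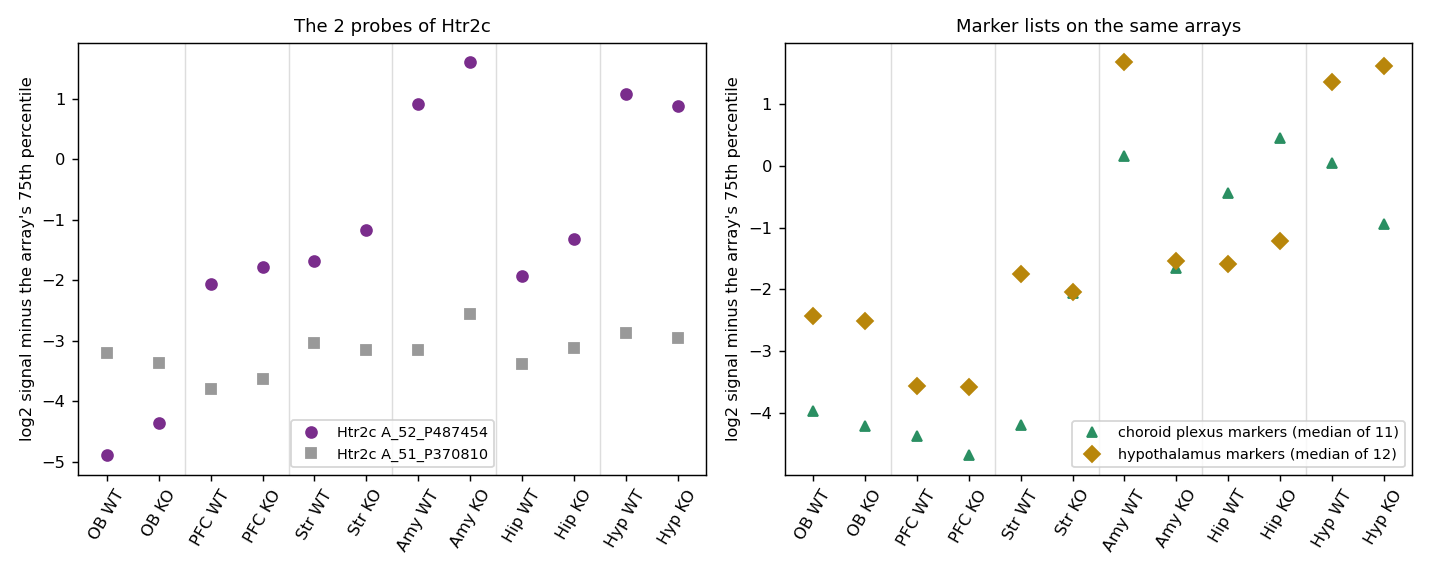
Left, level of the 2 Htr2c probes on each of the 12 arrays; right, median level of 11 choroid plexus and 12 hypothalamus marker genes on the same arrays (all as log2 signal minus the 75th percentile of the array). Amygdala KO has the highest Htr2c reading, 1.60, and marker medians of -1.65 and -1.54, while the A_51_P370810 probe stays between -3.80 and -2.56.

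Htr2a, the cortical Gq-coupled receptor through which classical hallucinogens act, varied little. Its probe read -3.46 and -2.97 in prefrontal cortex, -3.57 and -3.48 in olfactory bulb and -3.47 and -3.69 in hippocampus. It read -4.18 and -3.24 in amygdala, -3.81 and -4.33 in hypothalamus and -3.88 and -3.86 in striatum, where the WT array was not well above background. Prefrontal cortex had the highest mean, though Amygdala KO lay between its 2 arrays, and the remaining neighbours in the order overlapped. None of its 6 region differences passed the adjusted threshold, and the range of its region means, 0.85, was below the median of 1.15 over all tested probes.

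Of the Gs-coupled receptors, Htr7, which is known from hypothalamus and thalamus, followed the same high regions as Htr2c. Its probe read -2.39 and -2.33 in hypothalamus and -2.38 and -2.64 in amygdala. The remaining arrays lay between -4.07 and -3.33, with Hippocampus KO the lowest and Striatum WT not well above background. The hypothalamus and amygdala pairs overlapped each other and none of the other 8 arrays. Their overlap came from Amygdala WT alone, and Amygdala KO lay below both hypothalamus arrays. Hypothalamus exceeded the other regions by 1.02 (SE 0.15, limma adjusted p 0.00457), or 2.03-fold, and amygdala by 0.84 (SE 0.15, limma adjusted p 0.00528), short of 2-fold. From Amygdala KO alone the amygdala difference was 0.79 (limma adjusted p 0.0383), and without both amygdala arrays the hypothalamus difference was 1.24. The hypothalamus call stood close to the 2-fold line: without Prefrontal cortex WT, Hippocampus KO or Hypothalamus KO the difference was 0.99, 0.95 or 0.87, and in the last case the limma adjusted p was 0.0609. With normexp it was 0.43 (limma adjusted p 0.00648).

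Htr6, a receptor found almost only in brain and abundant in striatum, read -2.29 and -2.30 in hippocampus, -2.45 and -2.68 in prefrontal cortex and -2.61 and -2.87 in striatum. It read -2.86 and -3.03 in olfactory bulb, -3.28 and -3.16 in amygdala and -3.20 and -3.39 in hypothalamus. Hippocampus was the highest pair and amygdala and hypothalamus the lowest. The amygdala and hypothalamus pairs overlapped only through Amygdala WT, and Amygdala KO lay above both hypothalamus arrays. Hippocampus was above the other regions by 0.65 (SE 0.089, limma adjusted p 0.00222) and hypothalamus differed by -0.54 (SE 0.089, limma adjusted p 0.00661). Amygdala differed by -0.45 (limma adjusted p 0.00742), or -0.30 (limma adjusted p 0.0549) from Amygdala KO alone. None of these reached 2-fold. Hippocampus and prefrontal cortex, which shared a scan day, had the highest means of Htr6, as they did of Htr1a.

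Htr4 was barely measured. Probe A_52_P581594 was not well above background on any array. Probe A_51_P346353 was so on 3 arrays, all of them WT: Prefrontal cortex at -4.65, Hippocampus at -4.54 and Hypothalamus at -3.93. The KO arrays of the same regions read -5.05, -4.92 and -5.84 and were not well above background. The KO side was set at the dimmest level well above background on its array. WT was then 3.12-fold above KO in hypothalamus, 1.28-fold in prefrontal cortex and 1.22-fold in hippocampus. Each fold came from 1 array per genotype, with no test, and is not a strict lower bound. In these 3 regions the WT array also had the larger share of all spots well above background. The shares were 77.9% against 77.2% in hypothalamus, 76.6% against 72.9% in prefrontal cortex and 77.7% against 76.4% in hippocampus. In amygdala the same probe read -6.45 in WT and -5.71 in KO, neither well above background.

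Promoter sequences are shown for the pair of receptors that were high in the same regions, Htr2c and Htr7, and for Htr1a, whose regional order differed from theirs. RefSeq promoter windows of 300 bases (250 before and 50 after the start, build GRCm38.p6) were found for 7 of the 9 genes, with none for Htr3a and Htr4. They are written 5′ to 3′ in the direction of the gene, with CG dinucleotides in capitals. The windows are chrX:146962263-146962562 on the + strand for Htr2c, chr19:36057311-36057610 on the - strand for Htr7 and chr13:105443443-105443742 on the + strand for Htr1a.
Htr2c: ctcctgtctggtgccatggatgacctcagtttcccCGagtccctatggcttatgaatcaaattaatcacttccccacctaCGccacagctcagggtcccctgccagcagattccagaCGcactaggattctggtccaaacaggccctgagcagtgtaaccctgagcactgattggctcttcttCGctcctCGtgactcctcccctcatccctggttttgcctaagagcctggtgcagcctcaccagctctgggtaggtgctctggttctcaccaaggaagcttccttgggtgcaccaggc
Htr7: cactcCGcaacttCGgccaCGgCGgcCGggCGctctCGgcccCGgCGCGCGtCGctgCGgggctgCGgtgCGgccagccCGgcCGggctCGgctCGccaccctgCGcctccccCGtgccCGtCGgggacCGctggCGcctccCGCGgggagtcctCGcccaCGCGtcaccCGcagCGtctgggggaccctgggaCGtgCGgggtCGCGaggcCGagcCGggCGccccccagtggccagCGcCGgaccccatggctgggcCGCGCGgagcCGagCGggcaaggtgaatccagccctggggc
Htr1a: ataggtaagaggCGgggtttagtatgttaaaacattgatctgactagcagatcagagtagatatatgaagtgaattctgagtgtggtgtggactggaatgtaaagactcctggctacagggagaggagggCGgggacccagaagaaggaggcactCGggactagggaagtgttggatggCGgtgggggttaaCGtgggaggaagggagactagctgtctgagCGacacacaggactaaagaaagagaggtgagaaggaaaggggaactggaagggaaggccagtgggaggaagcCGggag

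Htr2c and Htr7 differed widely in base composition despite their shared high regions. The Htr7 window had 46 CG dinucleotides and a GC content of 81.0%, above 99.3% of the 32851 promoter windows in the table. The Htr2c window had 5 and 56.3%, and the Htr1a window 7 and 52.3%, near the table medians of 7 and 52.7%. Of 4 motifs searched on both strands, neither Htr2c nor Htr7 held any: the TATA box TATAAA (in 13.6% of all windows), the GC box GGGCGG (35.7%), the cAMP response element TGACGTCA (1.79%) and the E-box CACGTG (7.15%). The Htr1a window held 1 GC box, whose CG is among the capitals, 123 bases before the start. The GC box was also in the window of Htr2a and in 1 of 2 windows of Htr6.

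Htr3a, the channel subunit that in forebrain marks a class of GABA interneurons, was high in olfactory bulb, striatum and prefrontal cortex. Its probe read 0.33 and 0.68 in olfactory bulb, 0.17 and 0.15 in striatum and -0.34 and 0.33 in prefrontal cortex. It read -1.39 and -0.78 in amygdala, -1.28 and -1.26 in hippocampus and -1.25 and -1.43 in hypothalamus. All 6 arrays of the first 3 regions lay above all 6 arrays of the regions that shared the posterior slices. Olfactory bulb exceeded the other regions by 1.21 (SE 0.17, limma adjusted p 0.00124), or 2.32-fold, and striatum by 0.80 (SE 0.17, limma adjusted p 0.00505). Hypothalamus differed by -1.01 (SE 0.17, limma adjusted p 0.00734) and hippocampus by -0.91 (limma adjusted p 0.00744). Without both amygdala arrays the olfactory bulb, hypothalamus and hippocampus differences were 1.12, -1.19 and -1.10. The hypothalamus value lay at the 2-fold line and was lost without any 1 of Olfactory bulb KO, Prefrontal cortex KO, Striatum WT, Amygdala KO, Hippocampus WT or Hypothalamus KO, where it lay between -0.99 and -0.75, and also with median scaling at -0.92 and with normexp at -0.86. Amygdala differed by -0.69, or -0.48 (limma adjusted p 0.145) from Amygdala KO alone. The medians of 11 interneuron markers ran from 1.44 to 2.72 over the arrays and were highest in prefrontal cortex, not in olfactory bulb, where they were 1.69 and 1.85. The list was mixed in olfactory bulb, where 3 of these genes were called higher and 4 lower. Gad1 (probe A_51_P282538) read 5.61 and 5.54 there, 4.72 and 4.41 in striatum and 3.38 and 3.41 in prefrontal cortex. Cck was highest in prefrontal cortex, at 7.30 and 7.02, against 5.18 and 4.94 in olfactory bulb. Vip was also highest in prefrontal cortex, at 1.97 and 2.10, against 0.54 and 0.80 in olfactory bulb. Both had their lowest readings in striatum, where Htr3a was high: 3.09 and 3.78 for Cck and -4.60 and -3.20 for Vip.

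**Figure D3:**
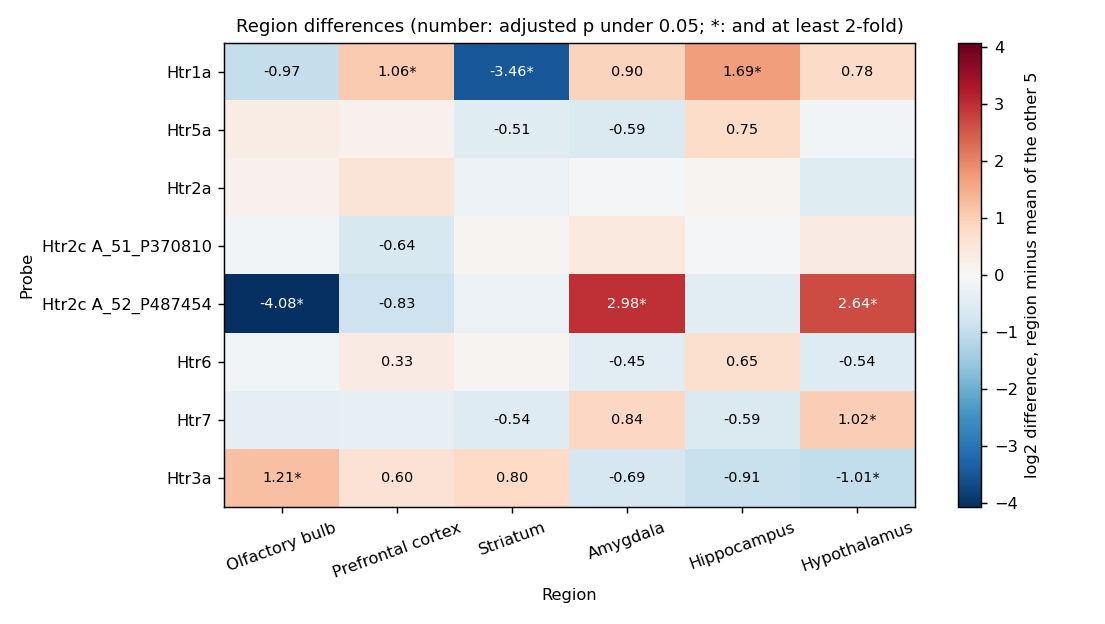
Log2 difference of each region from the mean of the other 5 for 8 receptor probes, as colour. Numbers are printed where the limma adjusted p was under 0.05, and a star marks those of at least 2-fold. The deepest colours belong to Htr2c A_52_P487454, at -4.08, 2.98 and 2.64, and to Htr1a in striatum, at -3.46, where the arrays were not well above background.

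The second question was whether any receptor differed between KO and WT mice. In the fit over all 12 arrays with region as a block, 0 of 8 receptor probes were called at an adjusted p under 0.05, against 14 of 31029 probes, or 0.0451%, over the whole array. At an unadjusted p under 0.05 there was 1 of 8 receptor probes, against 25.1% of all probes. The median difference was 0.12 over the 8 receptor probes, of which 6 were positive (3 of them negative with the normexp background correction), and -0.012 over all probes tested. The repeated unit is the region, and pools of different regions may have held the same mice, which the labels leave unsaid, so these p-values do not measure the spread between mice.

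The probe with the smallest p was Htr2c A_52_P487454. Its KO array read higher in 5 of 6 regions, by 0.70 in amygdala, 0.61 in hippocampus, 0.52 in olfactory bulb, 0.51 in striatum and 0.30 in prefrontal cortex, and differed by -0.19 in hypothalamus. The fitted difference was 0.41 (SE 0.12, 95% interval 0.13 to 0.69, limma adjusted p 0.11), and without the amygdala pair 0.35 (limma adjusted p 0.22). The choroid plexus marker genes were higher on KO for 10 of 11 genes in striatum and 10 of 11 in hippocampus, and lower on KO for 11 of 11 in amygdala, 11 of 11 in hypothalamus, 9 of 11 in olfactory bulb and 7 of 11 in prefrontal cortex. The Htr2c difference and most of these markers ran the same way in striatum, hippocampus and hypothalamus and opposite ways in amygdala, olfactory bulb and prefrontal cortex. The part of choroid plexus in the KO difference was not tested. The second Htr2c probe differed by 0.11 (95% interval -0.15 to 0.36), or 0.010 without the amygdala pair, and was higher in 3 of 6 regions.

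Htr1a differed by 0.25 (SE 0.14, 95% interval -0.088 to 0.58, limma adjusted p 0.315), with its largest pair differences of 0.71 in amygdala and 0.63 in prefrontal cortex, and by 0.16 without the amygdala pair. Htr3a differed by 0.24 (95% interval -0.062 to 0.54, limma adjusted p 0.285), or 0.17 without the amygdala pair. Htr3a lies on chromosome 9 with 13 protein-coding genes between it and Il18 in the RefSeq order, and Htr1b is on the same chromosome with 297 between. Htr2a differed by 0.13 (95% interval -0.30 to 0.57), which turned to -0.027 without the amygdala pair. Htr5a differed by 0.039 (95% interval -0.19 to 0.27), or 0.087 without the amygdala pair. Both Gs-coupled receptors that were tested had negative values: Htr6 differed by -0.12 (95% interval -0.28 to 0.034) and was lower in 5 of 6 regions, and Htr7 by -0.18 (95% interval -0.45 to 0.080) and was lower in 4 of 6. Without the amygdala pair both stood at -0.17. None of these 7 probes had an interval that left out 0, and the intervals still allow differences of up to about 0.58 in size. A p over the threshold does not show that the receptors were equal in KO and WT.

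**Figure D4:**
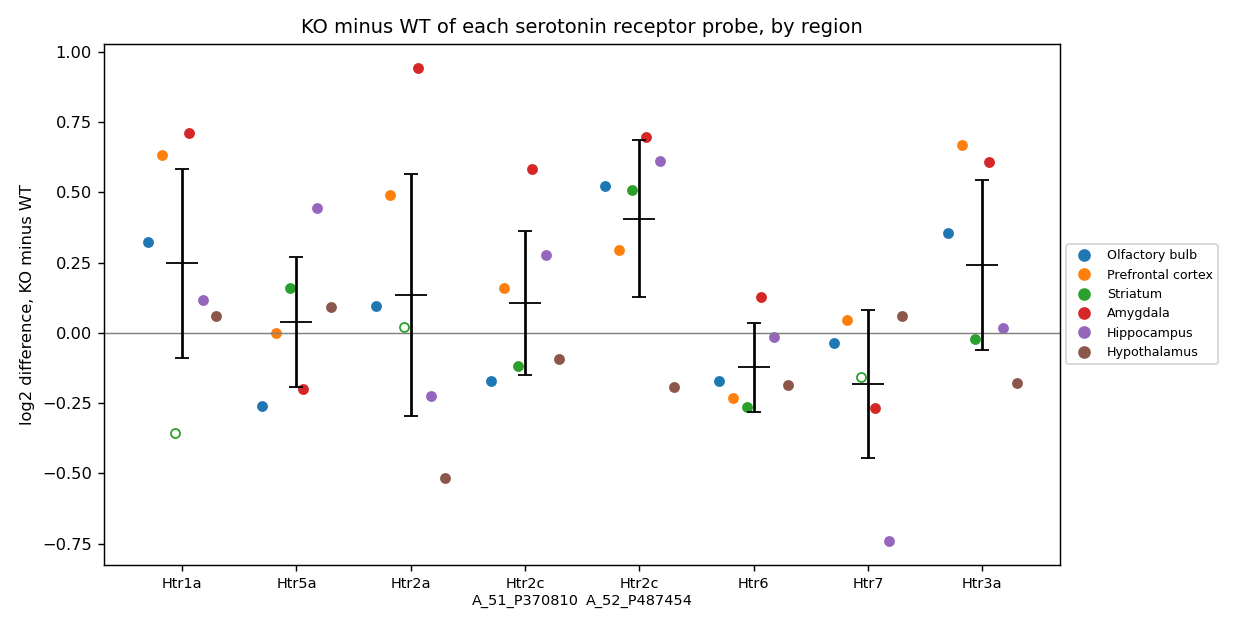
KO minus WT (log2) for each receptor probe in each of 6 regions (coloured points, 1 pair of arrays each; hollow where 1 or both arrays were not well above background) with the limma mean and its 95% interval (black). The interval leaves out 0 for Htr2c A_52_P487454 alone, and the highest single point among the 8 tested probes is Htr2a in amygdala at 0.94.

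Single regions had only 1 pair of arrays, which allows no test, so pairs were described by a 2-fold rule on probes well above background on both arrays. Of 45 receptor pairs, 0 were 2-fold apart. Over all probes the 2-fold share was largest in amygdala, at 6.17%, followed by prefrontal cortex at 4.15%, hippocampus at 1.86%, striatum at 1.58%, hypothalamus at 0.941% and olfactory bulb at 0.899%. The pair furthest apart was Htr2a in amygdala, at -4.18 in WT and -3.24 in KO, a difference of 0.94 with a spot error of 0.28 that covers reading on the array alone. Htr7 in hippocampus came next, at -3.33 in WT and -4.07 in KO. In amygdala 6 of 8 receptor probes were higher on KO, with a median absolute difference of 0.59. Prefrontal cortex had 7 of 8 higher on KO and a median of 0.26, and hippocampus 5 of 8 and 0.25. Olfactory bulb had 4 of 8 and 0.22, striatum 2 of 5 and 0.16, and hypothalamus 3 of 8 and 0.14. The share of all probes higher on KO in each region was not counted. The array labelled Amygdala WT was closer to the hypothalamus arrays in its receptor levels, with median absolute differences of 0.20 from Hypothalamus WT and 0.13 from Hypothalamus KO. On these arrays the KO and WT amygdala pair therefore differs in the tissue its markers show as well as in genotype, and the 2 cannot be told apart.

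Other genes of serotonin signalling had no call between KO and WT either. None of the tested genes was called among 4 other serotonin receptors, 8 genes of serotonin synthesis, transport and breakdown, 22 G protein, adenylyl cyclase, phospholipase and channel genes, or 7 receptor partners, and their medians were -0.020, -0.083, 0.046 and -0.071. Those counts and medians used the probe of highest mean for each gene, and the region differences that follow the probe of largest difference. Among the other receptors these were Htr1f, a Gi-coupled receptor, in olfactory bulb at 2.19 (SE 0.19, limma adjusted p 0.000131), and Htr5b, a close relative of Htr5a, in hippocampus at 2.12 (SE 0.12, limma adjusted p 8.64e-05). Htr2b did not pass, at -0.89 in amygdala (limma adjusted p 0.087), but did without Hypothalamus WT, at -1.08 (limma adjusted p 0.00364). With normexp the Htr1f difference fell under 2-fold, at 0.91. Among the synthesis genes, Slc18a2, the vesicular monoamine transporter, differed by -2.57 in prefrontal cortex (limma adjusted p 0.0361), where 1 of 2 arrays was well above background. That call was lost without any 1 of 8 arrays, at limma adjusted p from 0.0505 to 0.20, and without the amygdala pair, whose arrays read -0.34 in WT and -4.07 in KO, it was -2.60 (limma adjusted p 0.000721). The other Slc18a2 probe, A_51_P469550, was well above background on all 12 arrays. It differed by -1.22 in prefrontal cortex (limma adjusted p 0.0624) and was not called, and without the amygdala pair by -1.30 (limma adjusted p 0.000304). Ddc, the aromatic amino acid decarboxylase, differed by 1.92 in hypothalamus. Gch1, which makes the tetrahydrobiopterin cofactor, was fitted at -1.87 in striatum, but neither striatum array was well above background. With those readings set at the dimmest level well above background on the same array, no fold can be given. Among the transducers, Gnal, the olfactory and striatal Gs-type subunit, was 3.72 higher in striatum. The Gi-gated potassium channel gene Kcnj3 was not well above background on either striatum array. With those readings set the same way Kcnj3 was 3.79-fold higher in the other regions, although with normexp its difference was -0.43. The cyclase Adcy8 was well above background on 1 of 2 striatum arrays and, with the dim array set the same way, was 8.36-fold higher in the other regions. Of the partners, Ric3, a chaperone of Htr3a channels, was on probe A_52_P34378 likewise measured on 1 of 2 striatum arrays. With the dim array set the same way that probe was 3.61-fold higher in the other regions, with -0.35 as the striatum difference under normexp. A brighter Ric3 probe, A_52_P260954, was well above background on all 12 arrays. It read -0.87 and -0.84 in striatum and between -0.21 and 0.33 elsewhere. S100a10, the p11 protein that binds Htr1b, differed by -1.17 in hippocampus, and Adarb1, an enzyme that edits Htr2c RNA, by 0.85 in olfactory bulb.

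For each receptor the genes whose level ran most like it over the 12 arrays were sought among about 11805 named genes above background on all 12. Likeness was Pearson r, given as a description, since the arrays share regions and mice may be shared too. Htr2c A_52_P487454 ran closest to Aloxe3, Rln1 and Cyld (r 0.98, 0.98 and 0.98), and Htr1a to Amph, Tmem200a and Wasl (r 0.99, 0.99 and 0.99). Htr3a ran closest to Mxi1, Il17d and Ndrg4 (r 0.96, 0.96 and 0.94). Htr7 ran closest to Cda, Tmem130 and Nap1l5 (r 0.97, 0.96 and 0.94). Htr5a ran closest to Olfr1349, Faxc and Myog (r 0.97, 0.96 and 0.95), and Htr6 to Stx6, Pitx3 and Olfr313 (r 0.97, 0.96 and 0.96). Htr2a ran closest to Rb1cc1, Dclk1 and Crot (r 0.90, 0.84 and 0.83). Whether the probes of Htr5a, Htr6 and their neighbours read the named transcripts was not tested. The region differences of Htr5a and Htr6 are therefore those of the probes. Over the 10 arrays without the amygdala pair the same 21 genes had r between 0.81 and 0.99.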

How the data were processed

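RNA of 6 brain regions from IL-18 KO and WT mice was measured on 12 Agilent one-colour arrays (Cy3). Per the file headers, Feature Extraction 9.5.3.1 had made the deposited intensity values, which were background-subtracted and not scaled between arrays. The KO over WT ratio values that the authors deposited served as an alternative. Probes were named by matching their accessions to a RefSeq table (GRCm38.p6), with 22951 of 41174 probes matched (55.7%). From the deposited intensity, log2 was taken, the 75th percentile of each array was subtracted, outlier spots (61 to 143 per array) were left out, and spots of a probe were averaged. Probes well above background on at least 6 arrays entered lmFit and eBayes of limma 3.58.1 (R 4.3.3), with p-values adjusted by Benjamini-Hochberg over all of them. KO minus WT used region as a block, and each region minus the mean of the other 5 used genotype as a covariate. The number of arrays limits the precision. On simulated data the KO fit recovered 73.1% of probes changed by 1 and 49.3% of those changed by 0.5, with 8 false calls among 30970 probes. The striatum contrast recovered 65.7% and 16.4%, with 6 false calls. It was simulated without other region differences and called on the adjusted p alone, without the 2-fold rule of the region calls. Named genes were all receptors, the 3 genes of largest region difference on any tested probe in each signalling list, and the 3 genes closest to each receptor by Pearson r. Alternatives were median scaling, quantile normalization, normexp, other filters and probe rules, a trended robust variance, and leaving out arrays or regions. Normexp used median signals, since mean signals were not used here, and an offset of 50 intensity units. Setting spots below background at the floor of the array was added after seeing the data. The receptors and lists were chosen with earlier results of these data known.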

Additional observations from a re-analysis of the deposited data

How the results depend on the processing

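Across 13 or 14 alternatives each, none of the 8 KO minus WT receptor differences was called, and 5 of 108 alternative values changed sign: with normexp, Htr2a at -0.044, the A_51_P370810 probe of Htr2c at -0.050 and Htr5a at -0.011; without amygdala, Htr2a at -0.027; and without hippocampus, Htr5a at -0.042. Leaving out a region gave Htr2a values from -0.027 to 0.27 and Htr5a values from -0.042 to 0.10. Over all tested probes the KO calls moved from 14 to 2172 with normexp, 806 with probes above background on all 12 arrays, 960 with a trended robust variance and 7 with the mean of a gene's probes, and lay between 1 and 10 when a region was left out; the cause was not tested. The count of region calls went from 9 to 4 with normexp and to 5 with the filter of all 12 arrays, which leaves 5 receptor probes. It rose to 12 with median scaling, 13 with quantile normalization and 12 with no filter on background. Under median scaling and quantile normalization, calls were gained for Htr1a in amygdala (1.16 and 1.30) and in olfactory bulb (-1.13 and -1.03). Htr7 in amygdala was gained too (1.10 and 1.11). With no fold threshold 28 passed, and 7 to 11 when 1 array was left out. The 4 calls of Htr2c A_52_P487454 and of Htr3a in olfactory bulb held under every alternative run on them. Normexp turned the striatum differences of Htr5a to 0.083 and of Htr7 to 0.38, and that of Gch1 to 0.54 (0.073 with dim signals at the floor of the array), where it also moved the median of all probes in striatum to 0.43; the cause was not tested. Of the 20 receptor region differences over the adjusted threshold, 12 changed sign under at least 1 alternative, and none was called. Receptor pairs 2-fold apart within a region were 1 with median scaling and 1 with quantile normalization, both Htr2a in amygdala (1.16 and 1.08), and 4 with no filter on background, all of them Htr1b or Htr4. KO and WT were paired by region in 6 pairs, and with 1 array per group no other pairing could be made. Low signal limited Htr1b, Htr4 and the striatum readings of Htr1a, Htr2a and Htr7.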
